A study of Mus musculus with 6 samples.

Results

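The insulin receptor signalling and IGF axis was followed through 10 genes in brown fat of cold-exposed mice: the receptors Insr and Igf1r, the receptor substrates Irs1 and Irs2, the kinase Akt2, the ligand Igf1 and the IGF binding proteins Igfbp3, Igfbp4, Igfbp5 and Igfbp7. They were taken by gene symbol from a table of 54385 Ensembl genes, and all 10 were among the 18114 genes abundant enough to be tested. The samples were interscapular brown adipose tissue from C57BL/6N mice aged 20 weeks. All animals had eaten a high-fat diet for 12 weeks, after chow until 8 weeks of age, and all spent 24 h at 4 °C. The groups were wild type (3 libraries) and ADCY3∆AT (3 libraries), in which the AT form of Adcy3 is knocked out. Adcy3 encodes adenylyl cyclase 3, which produces cyclic AMP from ATP. Neither the cells that lack the AT form nor the animal behind each library is stated in the labels, so p-values measure the spread between these libraries, which may be partly technical. The series text names the depot inguinal, whereas each sample's own label says interscapular, and the latter is used here.

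Insulin binds the insulin receptor, a tyrosine kinase that phosphorylates IRS proteins, and these recruit phosphatidylinositol 3-kinase and activate AKT. In adipocytes AKT2 brings the glucose transporter GLUT4 to the surface, restrains lipolysis and keeps FOXO transcription factors out of the nucleus. IGF1 acts through the closely related IGF1 receptor and shares these substrates, while secreted binding proteins hold IGF1 and govern how much of it reaches the receptor. Brown fat takes up glucose in response to both insulin and cold, and cyclic AMP and insulin act in opposite directions on lipolysis.

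Library totals ranged from 44826777 to 54933588 estimated counts. Adcy3, the targeted gene, had 676.9, 727.8 and 651.9 CPM (estimated counts scaled to a common, TMM-adjusted library size) in wild type, while ADCY3∆AT had 348.5, 341.9 and 505.6 CPM, a log2 fold change of -0.78 ± 0.14 (SE; edgeR adjusted p = 0.158, DESeq2 adjusted p = 4.26e-07). Its groups did not overlap, and an exact permutation test (two-sided) returned 0.1, the lowest p that 3 against 3 libraries allow. Leaving out the highest library of that group, ADCY3∆AT replicate 3, moved the value to -0.99 (edgeR adjusted p = 0.00338). Over all 18114 genes edgeR called 1 row (0.00552%) at an adjusted p under 0.05, a row absent from the annotation (edgeR adjusted p = 7.9e-06). It had 553 ± 75.6 CPM (mean ± SD) in wild type and was listed at 0 in each ADCY3∆AT library. Its identifier, ENSMUSG66666620654, ends in the same digits as that of Adcy3, ENSMUSG00000020654. Whether this row counts the AT form was not tested. DESeq2 called 229 of 19977 genes (1.15%), and edgeR without ADCY3∆AT replicate 3 called 66. Brown adipocyte markers were all detected, with a summed level of 18887 to 19087 CPM in wild type against 18057 to 18863 CPM in ADCY3∆AT. Of these 8, 3 had a positive and 5 a negative fold change. In 2 the groups did not overlap, beside 16.5% of all genes tested, and both were lower in ADCY3∆AT. They were Ucp1 (-0.06 ± 0.04, SE; edgeR adjusted p = 0.674) and Elovl3, a fatty acid elongase (-0.38 ± 0.11, SE; edgeR adjusted p = 0.305, DESeq2 adjusted p = 0.0332). Skeletal muscle markers stood furthest apart of the marker lists, with all 12 at a negative fold change and 0 called. Of these 12, 11 (91.7%) were lower at an unadjusted p under 0.05, beside 5.78% of all genes tested, and 2 were at 0 in at least 1 library. Their summed level was 770 to 1603 CPM in wild type against 225 to 541 CPM in ADCY3∆AT. Most of the ADCY3∆AT sum was 1 marker, Mb, at 223.3, 362.6 and 359.2 CPM of 225, 438 and 541 CPM. Mb had 404.1, 354.1 and 423.5 CPM in wild type, with overlapping groups and a log2 fold change of -0.32 ± 0.17 (SE). The groups did not overlap in 11 of the 12 markers, beside 16.5% of all genes tested.

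None of the 10 genes of the axis passed the test. The count was 0 in edgeR, in DESeq2, in limma voom (0.011% of all genes called), in edgeR without a low-count filter (0.697%) and under each of the other alternatives tried. Their lowest adjusted p was 0.117, for Igfbp3 in DESeq2. At an unadjusted p under 0.05 edgeR listed 2 of the 10, Irs1 and Igfbp3, both at a lower level in ADCY3∆AT, where 11% of all genes tested stood past the same limit, 5.78% lower and 5.23% higher. In none of the 10 were the groups fully separated, against 16.5% of all genes tested. Fold changes were positive for 7 and negative for 3, from -0.46 to 0.20 with a median of 0.06, and the median over all genes tested was 0.004. In bulk tissue, fewer cells of a type and less RNA per cell cannot be told apart, which holds for every value given here.

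**Figure D1:**
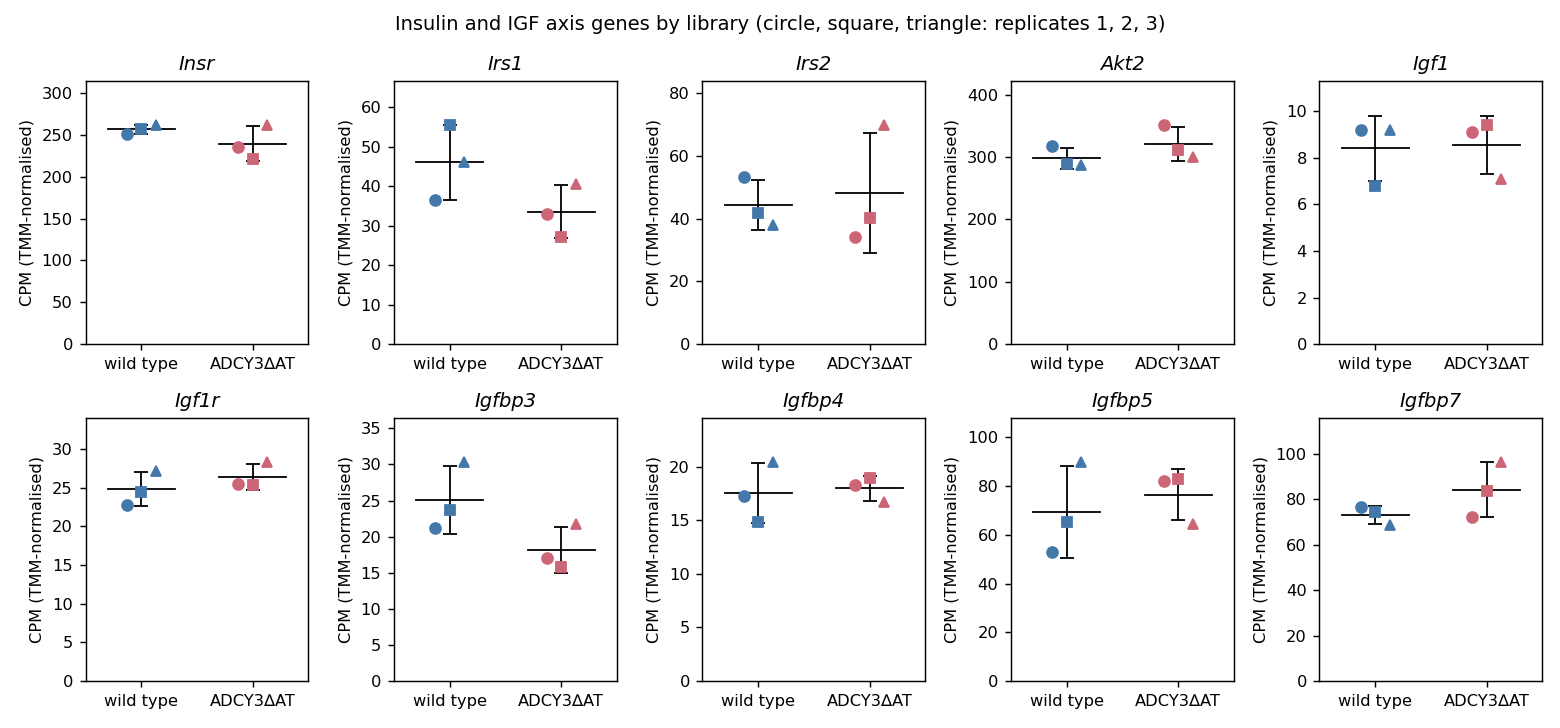
TMM-normalised CPM of the 10 genes in each library (vertical axes, starting at 0) for wild type (blue) and ADCY3∆AT (red); circles, squares and triangles are replicates 1, 2 and 3, and lines with bars are group means ± SD (n = 3). The groups overlap in every panel; for Igfbp3 the highest ADCY3∆AT library (21.8 CPM) lies just above the lowest wild-type library (21.2 CPM).

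Insr encodes the insulin receptor and was the second most abundant of the 10 genes by CPM (chromosome 8, 3122061 to 3279617, minus strand, GRCm38). It had 250.8, 257.5 and 261.4 CPM in wild type against 235.0, 221.2 and 261.9 CPM in ADCY3∆AT. ADCY3∆AT replicates 1 and 2 lay under every wild-type library, while replicate 3 lay above them all. This gave a log2 fold change of -0.10 ± 0.07 (SE; edgeR adjusted p = 0.636), with a 95% interval of -0.26 to 0.06, so that the ADCY3∆AT level was estimated at 0.837 to 1.04 times that of wild type. Larger differences in either direction lay outside that interval. The value was -0.05 when ADCY3∆AT replicate 2 was dropped and -0.17 when replicate 3 of that group was dropped.

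Igf1r, the IGF1 receptor, is a much longer gene (chromosome 7, 67952827 to 68233668, plus strand). It had 22.8, 24.5 and 27.2 CPM in wild type against 25.5, 25.4 and 28.4 CPM in ADCY3∆AT, groups that overlapped. edgeR estimated a log2 fold change of 0.09 ± 0.08 (SE; edgeR adjusted p = 0.721; 95% interval -0.09 to 0.28). Dropping a wild-type library gave from 0.03 (replicate 1) to 0.16 (replicate 3), and dropping ADCY3∆AT replicate 3 gave 0.04.

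The balance between both receptors was measured as a ratio within each library, which does not depend on how libraries are scaled. Per kb of exon, Insr exceeded Igf1r by 13.5, 12.8 and 11.7 times in wild type but by 11.3, 10.6 and 11.2 times in ADCY3∆AT. Each ADCY3∆AT library therefore had a smaller ratio than each wild-type library. The mean log2 ratio was 3.66 ± 0.10 in wild type against 3.47 ± 0.05 in ADCY3∆AT (SD, n = 3 each), a difference of -0.20. An exact permutation test (two-sided) returned p = 0.1, the lowest this design allows, and 0.3 after adjustment over the 3 ratios, so the separation did not pass. Leaving out any library kept the difference negative, from -0.25 to -0.15.

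**Figure D2:**
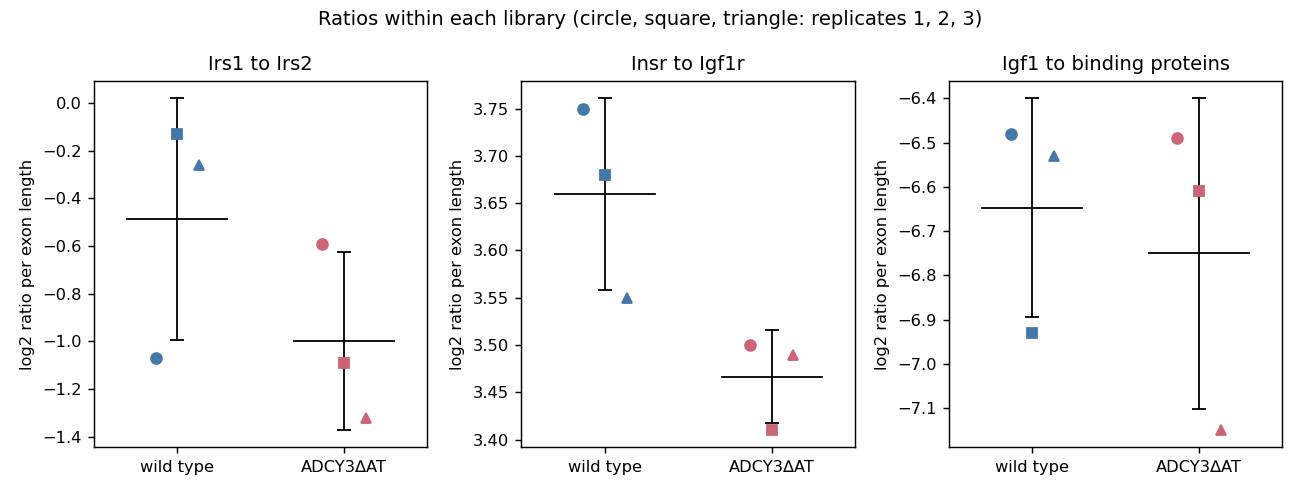
Log2 ratios per exon length within each library (vertical axes, which do not start at 0) for wild type (blue) and ADCY3∆AT (red), with replicates 1, 2 and 3 as circles, squares and triangles and group means ± SD (n = 3). Only the Insr to Igf1r ratio, from 3.55 to 3.75 in wild type and from 3.41 to 3.50 in ADCY3∆AT, separates the groups among the 3 ratios.

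Irs1, the substrate that couples the receptor to phosphatidylinositol 3-kinase in muscle and fat, had a lower mean in ADCY3∆AT without passing the test (chromosome 1, 82233101 to 82291416, minus strand). Its values were 36.6, 55.5 and 46.0 CPM in wild type against 32.9, 27.2 and 40.5 CPM in ADCY3∆AT. Here 2 of the 3 ADCY3∆AT libraries were under every wild-type library, and replicate 3 fell inside the wild-type range. The log2 fold change was -0.45 ± 0.17 (SE), a level of 0.730 times wild type with a 95% interval of 0.554 to 0.960, at an unadjusted p of 0.0293 and an edgeR adjusted p of 0.395 (DESeq2 adjusted p = 0.145). It was negative in each of the 15 alternatives, from -0.61 without ADCY3∆AT replicate 3 to -0.30 without wild-type replicate 2, and passed in none. Exons of Irs1 share 2822 bases, or 30.9% of their length, with Gm9747 on the other strand. Whether the counting used strand is not given, so reads from these bases cannot be told apart; Gm9747 was counted at no more than 0.0681 CPM in any library. Skeletal muscle, which also expresses Irs1, had a median log2 fold change of -3.16 over its 12 markers in the same libraries; its part in the Irs1 value was not tested.

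Irs2, the substrate that prevails in liver and pancreatic islets and whose transcription responds to fasting, was the most variable of the 10 genes (chromosome 8, 10984681 to 11008458, minus strand). It had 53.1, 41.9 and 38.0 CPM in wild type against 34.2, 40.1 and 69.8 CPM in ADCY3∆AT, so that the lowest and the highest of the 6 libraries were both ADCY3∆AT. The log2 fold change was 0.11 ± 0.25 (SE; edgeR adjusted p = 0.898), with a 95% interval of -0.45 to 0.68 that leaves the direction undetermined. Without ADCY3∆AT replicate 3 the value was -0.26 (edgeR adjusted p = 0.479). The 95% interval over all 6 libraries spans levels from 0.731 to 1.60 times wild type, equality among them.

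The ratio of Irs1 to Irs2 per exon length was 0.476, 0.917 and 0.835 in wild type against 0.665, 0.469 and 0.401 in ADCY3∆AT. Per exon length, Irs2 was thus the more abundant substrate in every library. By CPM, Irs1 was the higher in wild-type replicates 2 (55.5 against 41.9) and 3 (46.0 against 38.0). The ratios of the groups overlapped because ADCY3∆AT replicate 1 was above wild-type replicate 1. The mean log2 ratio was -0.49 ± 0.51 in wild type against -1.0 ± 0.37 in ADCY3∆AT (SD, n = 3 each), with p = 0.2 in an exact permutation test (two-sided; 0.3 after adjustment over the 3 ratios).

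The stretches upstream of both substrate genes are shown because the genes encode related docking proteins for the same receptors and their fold changes differed in sign, though neither passed, and that of Igfbp3 is shown because it had the lowest p of the 10 genes. Each is the 250 bases before the RefSeq start (GRCm38.p6), read 5′ to 3′ on the gene's own minus strand. Capitals mark the E-box CACGTG and the short form TGACG of the cyclic AMP response element, which reads CGTCA on the other strand. They are chr1:82291440-82291689 for Irs1, chr8:11008930-11009179 for Irs2 and chr11:7213924-7214173 for Igfbp3.
Irs1: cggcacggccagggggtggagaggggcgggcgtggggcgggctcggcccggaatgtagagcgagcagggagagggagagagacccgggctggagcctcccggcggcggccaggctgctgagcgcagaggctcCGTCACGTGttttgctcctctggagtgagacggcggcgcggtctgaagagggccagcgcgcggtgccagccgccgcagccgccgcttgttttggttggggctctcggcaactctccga
Irs2: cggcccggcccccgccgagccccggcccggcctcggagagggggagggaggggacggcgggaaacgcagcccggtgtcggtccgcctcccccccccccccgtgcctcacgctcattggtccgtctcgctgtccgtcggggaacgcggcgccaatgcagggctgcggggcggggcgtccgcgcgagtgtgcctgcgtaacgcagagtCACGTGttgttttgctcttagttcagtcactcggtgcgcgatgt
Igfbp3: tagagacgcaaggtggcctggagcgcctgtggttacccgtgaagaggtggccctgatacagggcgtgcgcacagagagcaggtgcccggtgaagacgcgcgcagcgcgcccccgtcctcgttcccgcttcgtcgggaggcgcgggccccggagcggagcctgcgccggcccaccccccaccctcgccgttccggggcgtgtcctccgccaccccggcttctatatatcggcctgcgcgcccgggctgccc
Both substrate genes held an E-box, beginning 115 bases before the start of Irs1 and 44 before that of Irs2, within a shared run of 10 bases, gtCACGTGtt. In Irs1 the short form CGTCA overlaps the E-box by 2 bases, so that the capitals form 1 block, and the Irs2 and Igfbp3 stretches hold no short form. An E-box occurs in 6.02% and the short form on either strand in 17.8% of the 32851 RefSeq promoter windows of the same length. The full element TGACGTCA (1.55% of windows) and the FOXO core TGTTTAC (3.17%, either strand) were in none of the 3 stretches. The windows behind these shares were not matched for GC content, which was 72.4% for Irs1, 72.8% for Irs2 and 73.2% for Igfbp3. In all, 12 windows of 9 of the 10 genes were searched, and the short form was also found upstream of Akt2. The E-box was added to the search after these sequences had been seen. These are matches of letters only.

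Akt2, the AKT isoform that carries the metabolic actions of insulin, had the highest CPM of the 10 genes (chromosome 7, 27591552 to 27640826, plus strand). It had 317.2, 288.4 and 287.7 CPM in wild type against 351.5, 310.5 and 300.4 CPM in ADCY3∆AT. Only ADCY3∆AT replicate 1 lay above the whole wild-type range. On the log2 scale the difference was 0.11 ± 0.07 (SE; edgeR adjusted p = 0.637), with a 95% interval of -0.06 to 0.28. Levels above 1.21 times or below 0.959 times wild type lay outside it. Leaving out ADCY3∆AT replicate 1 gave 0.04, and leaving out wild-type replicate 1 gave 0.16.

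Igf1, the ligand, was the least abundant of the 10 genes, with 299 to 503 estimated counts in a library (chromosome 10, 87858265 to 87937042, plus strand). It had 9.2, 6.8 and 9.2 CPM in wild type against 9.1, 9.4 and 7.1 CPM in ADCY3∆AT. Each group held 2 libraries just above 9 CPM and 1 near 7 CPM, and the log2 fold change was 0.02 ± 0.15 (SE; edgeR adjusted p = 0.971; 95% interval -0.33 to 0.37). Its sign turned without wild-type replicate 2 (-0.11), and on leaving out replicate 1 (-0.03) or 2 (-0.05) of ADCY3∆AT. Macrophages, one of the cell types known to make IGF1, had a summed marker level of 102 to 162 CPM in wild type against 116 to 173 CPM in ADCY3∆AT. Of their 7 markers, 6 had a positive fold change (median 0.26) and 0 had an unadjusted p under 0.05. Relative to the summed binding proteins per exon length, Igf1 had log2 ratios of -6.48, -6.93 and -6.53 in wild type against -6.49, -6.61 and -7.15 in ADCY3∆AT. The mean difference of -0.10 had an exact two-sided permutation p of 0.6 and became 0.10 without ADCY3∆AT replicate 3.

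Igfbp3 encodes the binding protein that carries most IGF in the circulation (chromosome 11, 7206086 to 7213923, minus strand). It had 21.2, 23.7 and 30.4 CPM in wild type against 17.0, 15.8 and 21.8 CPM in ADCY3∆AT. The groups overlapped only because ADCY3∆AT replicate 3 passed wild-type replicate 1. The log2 fold change was -0.46 ± 0.16 (SE), or 0.727 times wild type with a 95% interval of 0.567 to 0.931, at an unadjusted p of 0.0177 and an edgeR adjusted p of 0.343 (DESeq2 adjusted p = 0.117). It stayed negative in all 15 alternatives, from -0.61 without ADCY3∆AT replicate 3 to -0.30 without wild-type replicate 3. The next gene, Igfbp1, lies 3.54 kb away on the other strand and was nearly silent, with at most 0.13 CPM in any library.

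Igfbp4, a mostly inhibitory binding protein, had 17.3, 14.9 and 20.5 CPM in wild type against 18.3, 19.0 and 16.7 CPM in ADCY3∆AT (chromosome 11, 99041244 to 99054392, plus strand). All ADCY3∆AT libraries lay inside the wild-type range. Its log2 fold change was 0.04 ± 0.11 (SE; edgeR adjusted p = 0.937), and its sign turned without wild-type replicate 2 (-0.07) and when ADCY3∆AT replicate 2 was left out (-0.01).

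Igfbp5, which binds extracellular matrix as well as IGF, had 52.8, 65.4 and 90.1 CPM in wild type against 82.3, 82.9 and 64.4 CPM in ADCY3∆AT (chromosome 1, 72857932 to 72874884, minus strand). The wild-type libraries alone spanned the whole range. The log2 fold change was 0.14 ± 0.18 (SE; edgeR adjusted p = 0.815; 95% interval -0.28 to 0.56) and became -0.02 without wild-type replicate 1. All 10 fibroblast markers were detected, 8 with a positive fold change (median 0.15). Their summed level was 401 to 483 CPM in wild type against 462 to 514 CPM in ADCY3∆AT, and 0 of 10 had an unadjusted p under 0.05. The 6 mural cell markers summed to 624 to 688 CPM and 665 to 762 CPM in the same order, all 6 with a positive fold change. Of these, Notch3 had an unadjusted p of 0.0107 (0.36 ± 0.11, SE; edgeR adjusted p = 0.312) and no overlap. Notch3 was the only 1 of the 6 (16.7%) past the unadjusted limit of 0.05, beside 11% of all genes tested. It was also the only 1 without overlap, beside 16.5% of all genes tested. The remaining mural markers had log2 fold changes from 0.01 to 0.08. The part of fibroblasts and mural cells, which are known to make binding proteins, in the Igfbp4 and Igfbp5 values was not tested. Igfbp2, the neighbour of Igfbp5 5.46 kb away on the other strand, reached at most 0.34 CPM.

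Igfbp7, a relative of the family that binds IGF weakly and is secreted by vascular cells, had 76.6, 74.5 and 68.9 CPM in wild type against 72.4, 83.9 and 96.7 CPM in ADCY3∆AT (chromosome 5, 77349240 to 77408041, minus strand). ADCY3∆AT replicates 2 and 3 were above every wild-type library and replicate 1 was inside their range. Together they gave a log2 fold change of 0.20 ± 0.10 (SE; edgeR adjusted p = 0.514; 95% interval -0.03 to 0.43). It was 0.09 without ADCY3∆AT replicate 3 and 0.30 when replicate 1 of that group was left out. Of 8 endothelial markers 6 were on the positive side (median 0.15) and none was at 0 in any library. By unadjusted p under 0.05, 4 (50%) were higher, beside 5.23% of all genes tested. In 6 the groups did not overlap, beside 16.5% of all genes tested. DESeq2 called 1, Cdh5 (0.28 ± 0.07, SE, in edgeR, DESeq2 adjusted p = 0.0202), where it called 1.15% of all genes. The summed level of the 8 markers was 1068 to 1116 CPM in wild type against 1149 to 1206 CPM in ADCY3∆AT. The part of endothelial RNA in the values of Igfbp7 and Igfbp3 was not tested. Igfbp7 shares 85 exon bases, 7.03% of its length, with Polr2b on the other strand, which averaged 54.5 CPM; without strand, reads from these bases cannot be told apart.

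Expressed as shares of the 4 binding proteins' summed level per exon length, Igfbp7 held 66.0% to 76.5% in wild type against 72.0% to 78.8% in ADCY3∆AT. The share of Igfbp3 was 8.17%, 9.07% and 11.3% in wild type against 6.53%, 5.47% and 6.88% in ADCY3∆AT, groups that did not overlap. The means were 9.50 ± 1.59% and 6.29 ± 0.733% (SD, n = 3 each). The shares were computed after the values had been seen, and an exact permutation test (two-sided) returned p = 0.1, the lowest possible, and 0.4 after adjustment over the 4 shares. Igfbp4, Igfbp5 and Igfbp7 had overlapping shares.

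Compared per kb of exon, the level of the 10 genes fell into an order that was nearly the same in each library. Igfbp7 was highest, with a median over the 6 libraries of 62.5 CPM per kb, followed by Akt2 at 42.8 and Insr at 18.5. Igfbp5 had 12.3, Igfbp3 6.87, Irs2 6.48, Irs1 4.21, Igfbp4 4.03, Igf1r 1.52 and Igf1 0.924 CPM per kb. The ranges of Igfbp7, Akt2 and Insr did not overlap with those of their neighbours in the order on the high side, and Igf1r and Igf1 stood apart at the low end. Between Igfbp5 and Igfbp4 neighbouring ranges overlapped. Igfbp3 exceeded Irs2 in 3 of 6 libraries, which were the wild-type libraries 2 and 3 and ADCY3∆AT replicate 1, and Irs1 exceeded Igfbp4 in 4. Exon length here is the union of all annotated exons, so a gene whose transcripts use only part of it is set too low.

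**Figure D3:**
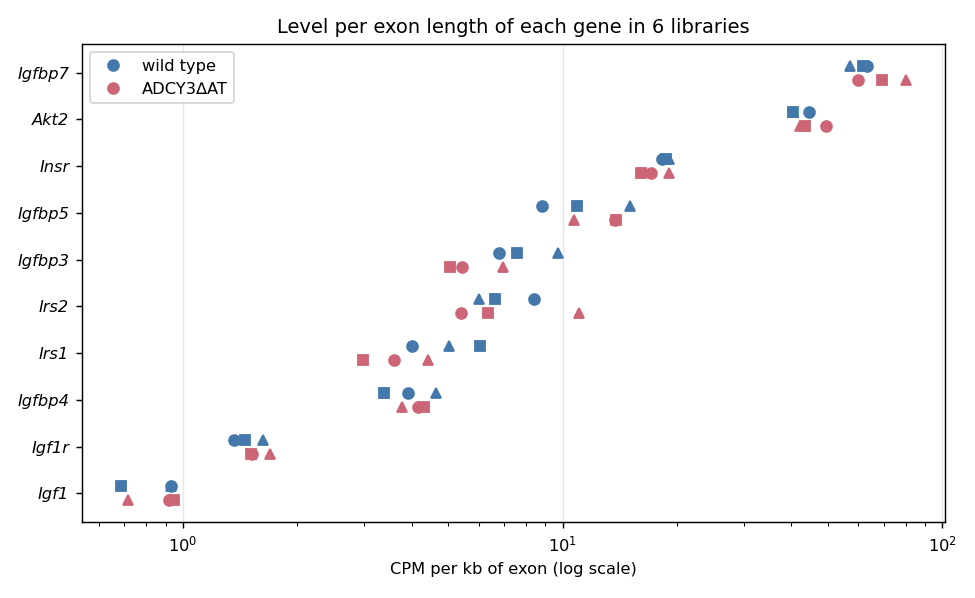
Level of each gene in CPM per kb of exon (horizontal axis, log scale) in the 3 wild-type (blue) and 3 ADCY3∆AT libraries (red), with replicates 1, 2 and 3 as circles, squares and triangles. Genes are ordered by their median over the 6 libraries, from 62.5 for Igfbp7 to 0.924 for Igf1, and both genotypes intermix within most genes.

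Replicates of a genotype differed more for several of these genes than for most genes of like abundance, which sets what could be detected. The within-genotype SD of Irs2 was 0.42 on the log2 CPM scale, above 99.0% of the 2013 genes whose mean log2 CPM was within 0.5 of its own. Igfbp5 (0.31) was above 98.1%, Irs1 (0.29) above 97.9% and Igfbp3 (0.26) above 95.5% of genes of like level. For Insr (0.09) and Akt2 (0.10) the shares were 66.7% and 69.3%. The interval of the fold change was accordingly narrow for Insr and Akt2 and wide for Irs2.

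**Figure D4:**
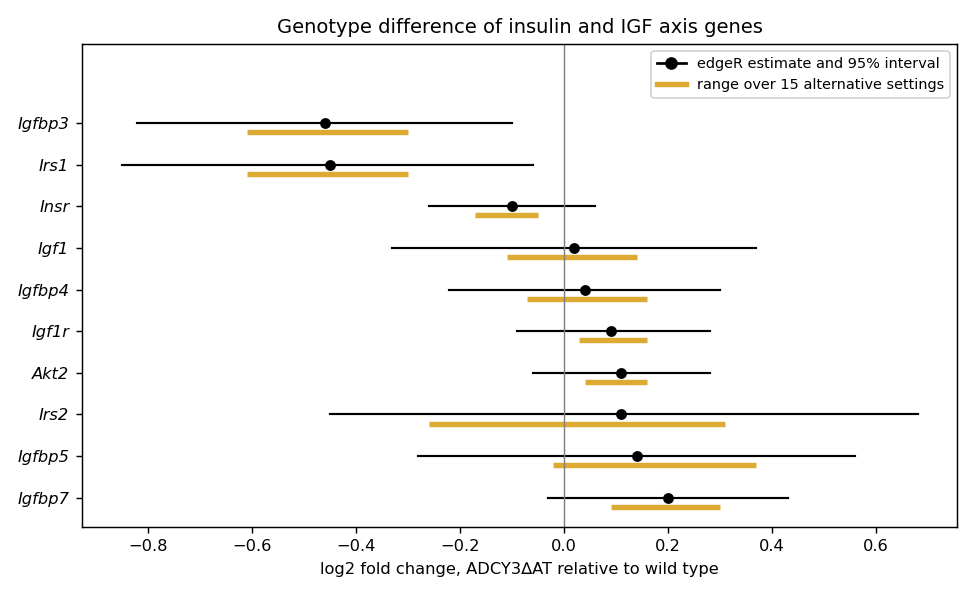
Log2 fold change of the 10 genes, ADCY3∆AT relative to wild type (horizontal axis), as the edgeR estimate with its 95% interval (black) and the range over 15 alternative settings (yellow). Irs1 and Igfbp3, at -0.45 and -0.46, have intervals that do not cross 0 before adjustment; their adjusted p-values are 0.395 and 0.343.

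The other genes of the pathway were read from 6 lists, which held 116 genes, of which 109 were tested. None passed in edgeR over all genes in either direction, where 0.00552% of all genes passed. DESeq2 called 2, Foxo3 and Txnip, both higher in ADCY3∆AT, where it called 1.15% of all genes. By unadjusted p under 0.05 edgeR listed 16 (14.7%), 11 higher and 5 lower, beside 11% of all genes tested, and in 22 (20.2%) the groups did not overlap, beside 16.5%. The median log2 fold change over these genes was 0.02. By list, the share at an unadjusted p under 0.05 was 10.5% for adaptors and phosphatases and 9.52% from phosphatidylinositol 3-kinase to AKT. It was 21.1% for mTORC1, GSK3, AS160 and FOXO effectors and 10% for the RAS to ERK arm. For other IGF axis genes it was 14.3%, and for FOXO-responsive transcripts 25%.

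**Figure D5:**
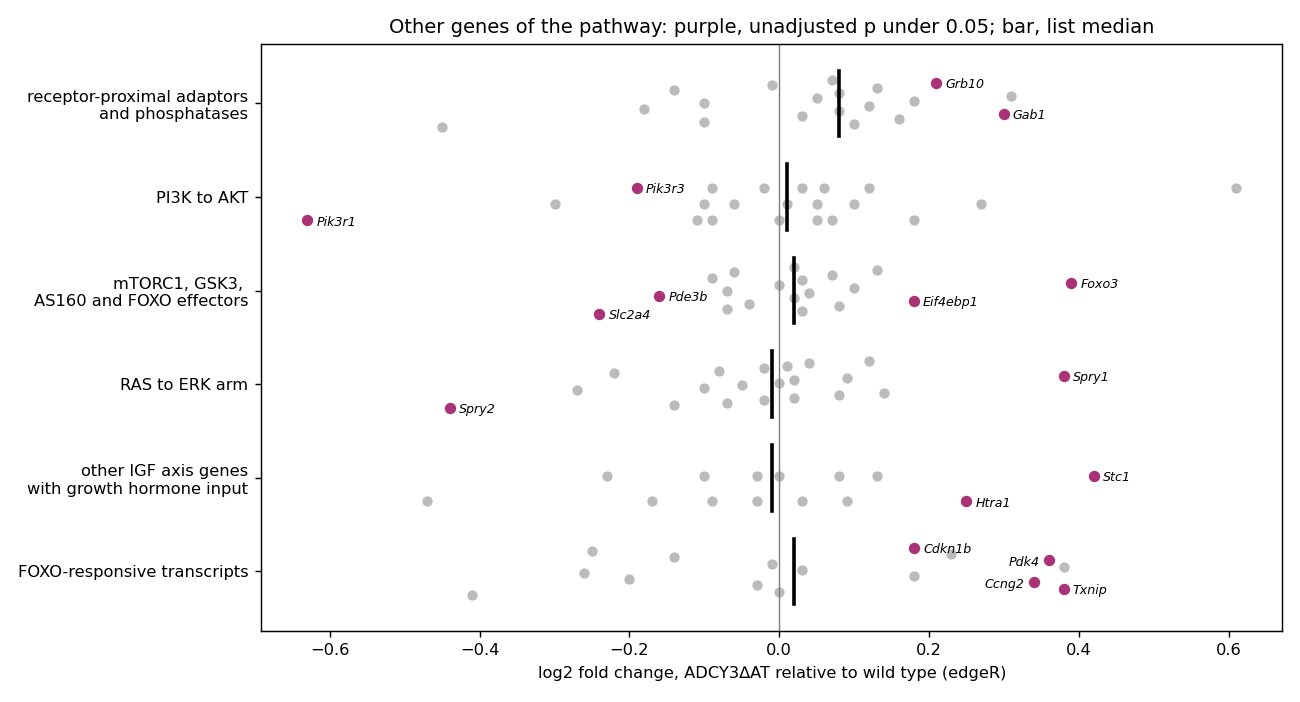
Log2 fold change in edgeR, ADCY3∆AT relative to wild type (horizontal axis), of each tested gene in 6 lists of the pathway (rows); purple points have an unadjusted p under 0.05, grey points do not, and black bars are list medians. The medians lie between -0.01 and 0.08, and named genes stand on both sides of 0 in the rows of effectors and of the RAS to ERK arm.

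Among adaptors and phosphatases next to the receptor, 13 of 19 tested genes had a positive fold change (median 0.08), 0 passed and 2 were higher by unadjusted p under 0.05. These were the adaptor Gab1 (log2 fold change 0.30 ± 0.10, SE; 6.9 to 7.7 CPM in wild type against 8.2 to 9.9 CPM in ADCY3∆AT) and Grb10, an inhibitor of both receptors (0.21 ± 0.07; 28.5 to 29.1 and 30.2 to 36.1 CPM). The ubiquitin ligase Cblb followed with 0.18 ± 0.08. In both Gab1 and Grb10, named for their low p-values, every ADCY3∆AT library was above every wild-type library. Over the list, groups did not overlap in 5 of 19 genes, beside 16.5% of all genes tested. Irs4, a further substrate, reached at most 2 counts in any library.

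In the list from phosphatidylinositol 3-kinase to AKT, 12 of 21 genes had a positive fold change (median 0.01), 0 passed and 2 were lower at an unadjusted p under 0.05. These were the regulatory subunits Pik3r1 and Pik3r3, through which the kinase docks on IRS proteins. Pik3r1 had 64.3, 114.4 and 104.9 CPM in wild type against 66.3, 69.5 and 48.1 CPM in ADCY3∆AT, a log2 fold change of -0.63 ± 0.21 (SE; edgeR adjusted p = 0.347). The groups overlapped through wild-type replicate 1, which was also the lowest wild-type library for Irs1. Pik3r3 had -0.19 ± 0.06, with 16.4 to 17.3 CPM against 14.4 to 15.1 CPM and no overlap, and the catalytic subunit Pik3cd had 0.27 ± 0.12. Groups did not overlap in 3 of the 21 genes, beside 16.5% of all genes tested.

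Among mTORC1, GSK3, AS160 and FOXO effectors, 12 of 19 genes had a positive fold change (median 0.02), 0 passed in edgeR, and 2 higher and 2 lower stood at an unadjusted p under 0.05. Foxo3, a transcription factor that AKT inactivates, had 21.2, 24.6 and 23.8 CPM in wild type against 28.7, 31.8 and 30.8 CPM in ADCY3∆AT. Its log2 fold change was 0.39 ± 0.07 (SE), higher in 3 of 3 libraries, with an edgeR adjusted p of 0.158 and a DESeq2 adjusted p of 0.00696. Slc2a4, which encodes GLUT4, had 272.4, 302.4 and 275.5 CPM in wild type against 224.2, 246.8 and 247.4 CPM in ADCY3∆AT. Each ADCY3∆AT library was below each wild-type library, at -0.24 ± 0.06 (SE; edgeR adjusted p = 0.252). Since skeletal muscle also makes GLUT4, the muscle marker levels given above stand beside this value; their part in it was not tested. The translation inhibitor Eif4ebp1 had 0.18 ± 0.05. Over this list, groups did not overlap in 4 of 19 genes, beside 16.5% of all genes tested.

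In the RAS to ERK arm, 9 of 20 genes had a positive fold change (median -0.01) and 0 passed. The feedback inhibitors Spry2 and Spry1 stood on opposite sides at an unadjusted p under 0.05. Spry2 had -0.44 ± 0.11 (SE), with 7.4 to 9.4 CPM in wild type against 5.9 to 6.3 CPM in ADCY3∆AT, and Spry1 had 0.38 ± 0.10, with 7.3 to 9.2 and 10.5 to 11.3 CPM. The exchange factor Sos2 had 0.12 ± 0.05. The groups did not overlap in any of these 3 genes, which were named for the lowest p-values of the list. Over the whole list they did not overlap in 4 of 20, beside 16.5% of all genes tested.

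Among other IGF axis genes and the growth hormone input, 14 of 19 were abundant enough to be tested, 6 with a positive fold change (median -0.01), 0 past the threshold and 2 higher at an unadjusted p under 0.05. Htra1, a secreted protease that cleaves IGF binding proteins, had 0.25 ± 0.07 (SE; 10.8 to 11.5 CPM in wild type against 12.5 to 14.1 CPM in ADCY3∆AT). Stc1, a stanniocalcin, had 0.42 ± 0.16 (1.9 to 2.0 and 2.3 to 2.8 CPM). Igfals, the partner of the circulating IGF complex, had -0.47 ± 0.24 at 1.9 to 4.1 CPM over all libraries. The liver marker Alb reached at most 0.18 CPM. Igfbp1, Igfbp2, Insrr, Pappa2 and Igf2bp3 were too low to be tested, each at 0.34 CPM or less.

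Of 16 FOXO-responsive transcripts, 8 had a positive and 8 a negative fold change (median 0.02), and 0 passed in edgeR. By unadjusted p under 0.05, 4 (25%) were higher, beside 5.23% of all genes tested. Txnip, an inhibitor of glucose uptake, had 493.2, 527.4 and 550.5 CPM in wild type against 806.2, 652.7 and 587.3 CPM in ADCY3∆AT, without overlap. Its log2 fold change was 0.38 ± 0.11 (SE; edgeR adjusted p = 0.288, DESeq2 adjusted p = 0.0264). Ccng2 had 0.34 ± 0.12, and Pdk4, which inhibits pyruvate dehydrogenase, had 0.36 ± 0.13, both with overlapping groups. Over this list, groups did not overlap in 3 of 16 genes, beside 16.5% of all genes tested.

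Genes that ran most nearly parallel to 3 of the 10 genes over the 6 libraries were sought among 8392 protein-coding genes of mean log2 CPM 3 or more, by Pearson's r of log2 CPM. For Insr they were Egln2 (r = 0.993), Abhd17c (0.990), Fgfr1op (0.983) and Shpk (0.978). For Irs2 they were Trim8 (0.996), Rps27rt (0.992), Rnf41 (0.991) and Cpeb4 (0.982). For Igf1 they were Herc3 (0.984), Epm2a (0.983), Zbtb4 (0.977) and Camk2b (0.973). All 12 rest on the same 6 libraries and were the highest of many, so they only describe these libraries. ADCY3∆AT replicate 3 was the highest library for Irs2 and for each of its 4 companions.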

How the data were processed

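RNA was measured by paired-end sequencing of total RNA from 6 libraries, per the labels, with the NEBNext Ultra II kit. The authors deposited estimated counts by Ensembl gene without normalisation, of which 31.6% are fractional. The submitters' processing notes name GRCm38, StringTie, Salmon and edgeR; their roles, versions and strand setting are not given here. A quantifier of this kind divides reads among overlapping transcripts, and receptor isoforms are not separated in gene rows. Of 54385 rows 54131 matched a symbol in GENCODE M21 (GRCm38), which also gave gene positions and exon lengths. Promoter windows are RefSeq's (GRCm38.p6), found for 9 of the 10 genes.

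Counts were rounded, kept with filterByExpr (18114 genes) and scaled with TMM. Genes were tested in R 4.3.3 by the quasi-likelihood test of edgeR 4.0.16, with genotype as the only term, all 6 libraries, Benjamini-Hochberg adjustment and a threshold of 0.05. Standard errors and 95% intervals are those implied by the F statistic, and the intervals are not adjusted for the number of genes. Log2 CPM used a prior count of 2. Ratios and shares used counts per exon length and exact permutation tests over libraries. The alternatives comprised DESeq2 1.42.0, voom from limma 3.58.1, robust edgeR, RLE scaling, no scaling beyond totals, other low-count filters, leaving out mitochondrial transcripts, a threshold of 0.1, the replicate number as a block and leaving out each library. Library pairs within a genotype differed by more than sampling noise (chi-square per degree of freedom 23.7 to 58.2), so none was taken as a duplicate.

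The 10 genes and all gene lists were chosen with earlier results of these data known. The text names the 10 genes, Adcy3, the 3 lowest p-values of each pathway list and the 4 genes most like Insr, Irs2 and Igf1. Gm9747, Polr2b and the neighbours of Igfbp3 and Igfbp5 were added for their position after their values were seen. Untested list members, Alb, Ucp1, Elovl3, Mb, Notch3 and Cdh5 were likewise added for their level after their values were seen.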

Additional observations from a re-analysis of the deposited data

How the results depend on the processing

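The count of genes called over all genes rested on the setting: 1 in edgeR, 229 in DESeq2, 2 in limma voom, 2 with robust estimation, 214 with no low-count filter and 3 with the replicate block. Leaving out 1 library gave 1 to 66, with 66 without ADCY3∆AT replicate 3; the cause was not tested. No gene of the axis passed in any of the 15 alternative fits or at a threshold of 0.1. Adcy3 passed in DESeq2 (-0.78), with no low-count filter (-0.78) and when ADCY3∆AT replicate 3 was dropped (-0.99), and leaving out 1 library gave -0.99 to -0.68. Of 150 member fits 7 turned sign, all when a library was left out: Irs2 (-0.26 to 0.31 over left-out libraries; -0.26 without ADCY3∆AT replicate 3), Igf1 (-0.11 to 0.14; -0.11 without wild-type replicate 2, -0.03 and -0.05 on dropping ADCY3∆AT replicates 1 and 2), Igfbp4 (-0.07 to 0.16; -0.07 and -0.01 on dropping replicate 2 of wild type or of ADCY3∆AT) and Igfbp5 (-0.02 to 0.37; -0.02 without wild-type replicate 1). The Igf1 to binding protein ratio ranged from -0.24 to 0.10 over left-out libraries, and was 0.10 without ADCY3∆AT replicate 3. The difference in Igfbp4 share ranged from -0.594 to 0.108 percentage points, turning to 0.0673 and 0.108 when the third library of either genotype was dropped. That of Igfbp5 ranged from -1.22 to 2.15, turning to -1.22 without wild-type replicate 1, and to -0.935 or -0.151 on dropping ADCY3∆AT replicate 1 or 2. Same-numbered libraries did not deviate together (r = -0.13, -0.19 and -0.14). With 3 libraries per genotype this cannot tell whether the numbers pair the samples, and the labels do not say so. The replicate block raised the count of calls from 1 to 3, none of them in the axis.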
